A study of Fragaria vesca with 12 samples.

Results

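Ripe strawberries (*Fragaria vesca* 'Mara des Bois') stored in the cold in air were compared with strawberries stored without cold. The 2 conditions were air cold storage (ACS), with 7 days at 1°C in air followed by a day at 20°C, and non-cold storage (NCS), in which fruit was placed directly at 20°C and 80% relative humidity for 2 days. The members were chosen by their labels, as 3 libraries of NCS and 3 of ACS, 6 of the 12 libraries of the series. The other 6 libraries, fruit sampled 2 hours after harvest (AH) and fruit cold-stored for the same time with 18% CO2 during the first 2 days (CCS), entered no comparison and are given as levels beside the 2 conditions. All fruit came from the same commercial crop of this cultivar, each replicate was a mixture of many fruits, and a chamber or container was not replicated within a condition. Cold, time since harvest (8 days in ACS and 2 in NCS), time at 20°C (1 day in ACS and 2 in NCS) and the chamber differed together. They therefore cannot be told apart in any difference given here. Humidity was stated for NCS only. The p-values measure the spread between these libraries.

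The fruit sold as a strawberry is a swollen receptacle that carries the true fruits, the achenes, on its surface, so that RNA of a whole fruit holds both soft ripe tissue and seeds. Low temperature is sensed in plant cells through membranes and a rise of calcium in the cytosol, and calcium-binding proteins and transcription factors pass the signal on. Genes of plant cold responses encode protective proteins such as dehydrins, enzymes that make raffinose and its precursor galactinol, and enzymes that modify the cell wall. Many of the same calcium sensors, kinases and WRKY factors also act in defence against pathogens.

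Expression was given as RPKM, reads scaled to gene length and to the size of the library, which is a level that can be compared between genes. Reads recovered from these values came to 64.2 to 90.8 M per NCS library and 68.1 to 101.7 M per ACS library, and a gene of typical length with 10 reads stood at 0.0398 to 0.0631 RPKM in these 6 libraries. Replicates differed by more than counting noise in both conditions. ACS replicate 1 stood apart from the other ACS libraries in a set of genes: among the genes called higher in ACS, it was at least 1.5 times the next ACS library for 95 genes, against 1 gene for ACS replicate 2 and 0 for ACS replicate 3. Markers of seeds moved with the conditions and with this library. The summed RPKM of the 14 seed storage and oil body genes, none of which was at 0, was 1036 to 1460 in NCS, 4123 in ACS replicate 1 and 2207 and 2074 in the other 2 ACS libraries. It was 2163 to 3166 in AH and 1012 to 3129 in CCS. The 40 ripe receptacle markers, 5 of them at 0 in all 6 libraries, summed to 3469 to 3656 RPKM in NCS and 3012 to 3180 in ACS, while the 76 markers of green tissue summed to only 62.8 to 64.5 and 70.6 to 93.1. The genes named below for which ACS replicate 1 stood out in this way are therefore given with and without that library.

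Most genes that differed strongly between the 2 conditions were higher after cold storage in air. Of 34008 genes, 16341 reached 0.5 RPKM in 3 or more of the 6 libraries and were tested with limma on log2(RPKM + 0.1), with Benjamini-Hochberg adjustment over all of them. Differentially expressed genes (DEGs) were those whose adjusted p was at most 0.05 and whose log2 fold change was 1.5 or more in either direction, where a fold change is ACS over NCS and, because of the 0.1 added, comes out too small for weakly expressed genes. There were 507 DEGs higher in ACS (3.10% of the genes tested) and 37 lower in ACS (0.226%). Percentages given with groups below are shares of their tested members called higher in ACS. As so few DEGs were lower, a count of none lower says little about a group. Without a limit on the fold change, 5051 genes were higher in ACS (30.9%) and 2789 lower (17.1%). This majority depended on the scaling, since 64.4% of the genes that passed the adjusted p were higher with RPKM and 45.5% after median-of-ratios scaling, whereas 93.2 and 90.6% of the DEGs were higher. The 544 DEGs made up 3.33% of the genes tested. For 543 of them the libraries of the 2 conditions did not overlap, the exception being *FvH4_c1g00520*, an NADH dehydrogenase 2A. The limits that define a DEG favour such separation, so it adds no support to the calls, and its share among all genes tested was not counted. The DEGs higher in ACS were mostly weakly expressed in NCS, with a median level of 0.755 RPKM in NCS and 4.66 in ACS. Those lower in ACS had medians of 6.40 and 1.63. With each library left out in turn and the same genes tested, 477 to 615 DEGs were called. When the filter was applied again without ACS replicate 1, 300 DEGs were called, because a gene seen only in ACS can no longer reach 3 libraries.

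**Figure D1:**
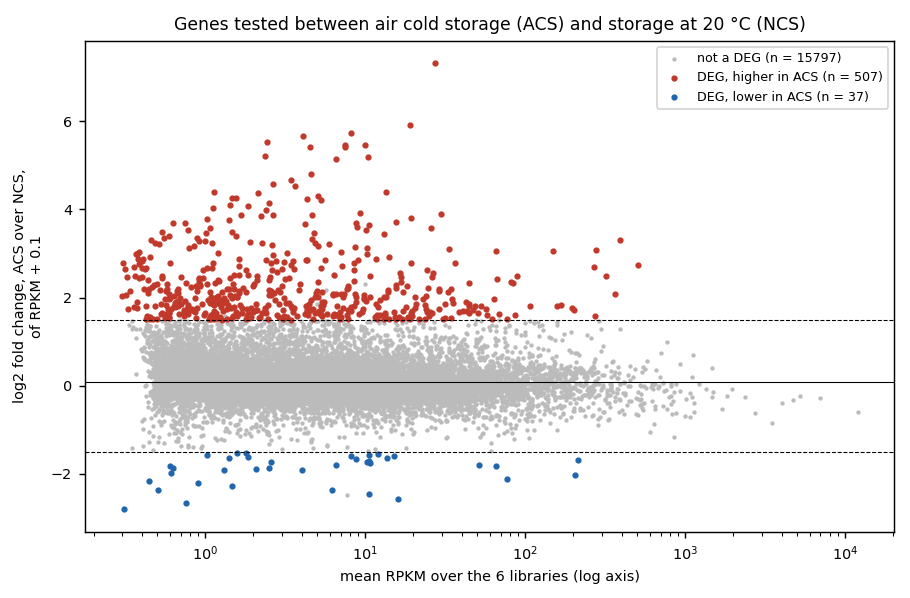
Each point is a gene tested, with its mean RPKM over the 6 libraries on a log axis and its log2 fold change of ACS over NCS. The 507 DEGs higher in ACS (red) and the 37 lower (blue) lie beyond the dashed lines at 1.5, the solid line is the median of all genes tested (0.08), and red points reach much further from it than blue ones.

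The gene with the largest log2 fold change on the log2(RPKM + 0.1) scale was *FvH4_7g22200*, described as an UPF0497 protein, a family of membrane proteins. Its RPKM was 0.251, 0.221 and 0.241 in the 3 NCS libraries and 47.2, 56.1 and 59.1 in the 3 ACS libraries. It rose from a low to a moderate level in every ACS library, with a log2 fold change of 7.32 ± 0.09 (SE, limma, adjusted p = 9.1e-07). The 9 genes that followed among DEGs without overlap had log2 fold changes between 5.21 and 5.92. Their descriptions name 3 calcium-binding proteins, a calcium-dependent lipid-binding protein (*FvH4_6g13620*), an ankyrin repeat protein (*FvH4_6g32091*), a GRAS-family transcription factor (*FvH4_6g10950*), a protein kinase (*FvH4_4g07910*) and a leucine-rich repeat kinase (*FvH4_7g14701*), and *FvH4_3g23270* has no description in the annotation used for the groups. The kinase *FvH4_4g07910* had 4 reads in the 3 NCS libraries together and 2488 in the 3 ACS libraries, with 4.49, 5.22 and 4.92 RPKM in ACS. By the plain ratio of mean RPKM, this kinase changed more (609.6) than *FvH4_7g22200* (228). *FvH4_6g32091* went from 0.0608 ± 0.0239 to 8.08 ± 0.399 RPKM (SD, n = 3). All 10 genes were low at harvest as well, with AH means of 0.00271 to 0.156 RPKM, and were high in CCS, with means of 3.72 to 46.3.

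Calcium signalling genes included 3 of the 10 genes with the largest log2 fold changes. Of 165 genes described as calcium sensors, calmodulin-binding proteins or calcium-dependent kinases, 107 were tested. Of these 12 were called higher in ACS (11.2%, beside 3.10% of all genes tested) and none lower (beside 0.226%). Without a fold limit 53 were higher and 12 lower, beside 30.9 and 17.1% of all genes tested. The median log2 fold change of the group was 0.23, against 0.08 over all genes tested, so that most members moved little and a few moved far. *FvH4_5g14810*, an EF-hand protein similar to calmodulin-like CML47, had 0.488, 0.618 and 0.45 RPKM in NCS and 32.5, 41.5 and 38 in ACS. A second EF-hand gene, *FvH4_3g03600*, had 0.162, 0.175 and 0.286 RPKM in NCS and 15.9, 15.4 and 17 in ACS. For both genes the lowest ACS library was more than an order of magnitude above the highest NCS library, and the log2 fold changes were 5.92 ± 0.13 (SE, limma, adjusted p = 2.1e-06) and 5.74 (standard error 0.15, adjusted p = 2.7e-06). *FvH4_2g40400*, a calmodulin-like 41, which in *Arabidopsis* acts at the channels between cells during defence, had 0.243, 0.116 and 0.451 RPKM in NCS and 12.4, 17.7 and 13.9 in ACS. Its NCS libraries were more spread out than those of the other EF-hand genes, and its log2 fold change of 5.41 had a standard error of 0.33 (adjusted p = 5.9e-05). Calmodulin-binding proteins changed too, and of these *FvH4_3g45350* (0.12 ± 0.0165 RPKM in NCS and 5.2 ± 0.402 in ACS) and *FvH4_5g11800* (0.194 ± 0.00525 and 4.56 ± 0.435), both chosen after their values were seen, had log2 fold changes of 4.59 and 3.98. With each library left out and the same genes tested, 11 or 12 members were called, and 8 when the filter was applied again without an ACS library.

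Immune receptors of the NBS-LRR type, intracellular proteins that recognise products of pathogens, had more DEGs in number than any other of the 46 groups defined by description. They were also the group with the most genes, and the share of DEGs was larger in others, such as seed storage and oil body genes (54.5%) and xyloglucan endotransglucosylases (46.7%). The table describes 441 of them, of which 138 were tested, 28 were called higher in ACS (20.3%, beside 3.10% of all genes tested) and none lower. Without a fold limit 83 were higher and 2 lower, and the median log2 fold change was 0.49. *FvH4_5g23420*, with an NB-ARC domain, had 0.947, 1.1 and 1.12 RPKM in NCS and 16.7, 18.8 and 16.6 in ACS, a log2 fold change of 3.92 ± 0.08 (SE, limma, adjusted p = 2.0e-06). *FvH4_5g32820*, of the CC-NBS-LRR class, had 0.401, 0.0709 and 0.122 RPKM in NCS and 6.17, 7.15 and 6.69 in ACS, and here too the libraries did not overlap (log2 fold change 4.66, standard error 0.38, adjusted p = 1.7e-04). *FvH4_1g15150* belongs to a run of neighbouring identifiers of the same class, went from 0.967 ± 0.189 to 7.59 ± 1.0 RPKM (SD, n = 3) and had a log2 fold change of 2.86. Members of such runs resemble each other, so that reads may be split among them and values of single members are uncertain. Leaving out a library with the same genes tested gave 25 to 30 DEGs, and applying the filter again gave 14, 13 and 16 without ACS replicates 1, 2 and 3. With a pseudocount of 1 RPKM 8 were called.

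WRKY factors, which bind W-box elements of defence and stress genes, showed the same direction. Of 61 genes 43 were tested, and 7 were called higher in ACS (16.3%, beside 3.10% of all genes tested) and none lower. Without a fold limit 29 were higher and 5 lower, and the median log2 fold change was 0.37. The WRKY40 gene *FvH4_2g41070* had 0.279, 0.374 and 0.178 RPKM in NCS and 11.6, 13.2 and 13.8 in ACS. This was the largest change of the group, with a log2 fold change of 5.13 ± 0.19 (SE, limma, adjusted p = 8.7e-06), whereas its neighbour *FvH4_2g41060*, chosen after its values were seen and also described as WRKY40, changed by 2.11. *FvH4_2g31400*, a WRKY50, went from 1.3, 1.02 and 1.18 RPKM in NCS to 15.3, 17 and 16.4 in ACS (log2 fold change 3.69, standard error 0.09), and the WRKY51 gene *FvH4_1g22820* changed by 2.52. The remaining 3 DEGs, named after their values were seen, were the WRKY70 gene *FvH4_7g26030*, the WRKY55 gene *FvH4_7g26020* and the WRKY46 gene *FvH4_7g16150*, with log2 fold changes of 2.40, 2.20 and 1.83. With any library left out 7 were called where the same genes were tested, and 4 when the filter was applied again without an ACS library.

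Other transcription factor families held fewer DEGs. NAC factors, which include regulators of senescence and stress, had 43 members tested of 135, with 4 higher (9.30%) and none lower. They were led by *FvH4_2g16180* (NAC36, 0.751 ± 0.113 RPKM in NCS and 5.25 ± 0.234 in ACS, log2 fold change 2.66), *FvH4_6g19430* (NAC90, 2.23) and *FvH4_7g18010* (NAC96, 1.95). Ethylene genes and AP2/ERF factors had 76 members tested of 132, with 4 higher (5.26%, beside 3.10% of all genes tested) and none lower. Among them *FvH4_3g01280*, an ACC oxidase, the enzyme that releases ethylene, had 2.13, 1.93 and 2.02 RPKM in NCS and 6.58, 7.21 and 6.69 in ACS (log2 fold change 1.70, standard error 0.06, adjusted p = 8.1e-06). The genes *FvH4_5g01440* and *FvH4_6g10690* were described as integrase-type DNA-binding proteins and annotated as dehydration-responsive element-binding proteins DREB1B and DREB2A. They changed by 1.89 and 1.62 on the log2 scale. MYB factors had 2 DEGs of 58 tested (3.45%, near the 3.10% of all genes tested), and without a fold limit 19 were higher and 13 lower, or 13 and 21 after median-of-ratios scaling. Of these *FvH4_1g07170* was at 5.38 ± 0.331 RPKM in NCS and 28 ± 1.53 in ACS. DEGs higher in ACS numbered 3 of 58 among bHLH factors (5.17%) and 1 of 20 (5.0%) among MADS-box factors (*FvH4_5g35401*, 2.41).

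**Figure D2:**
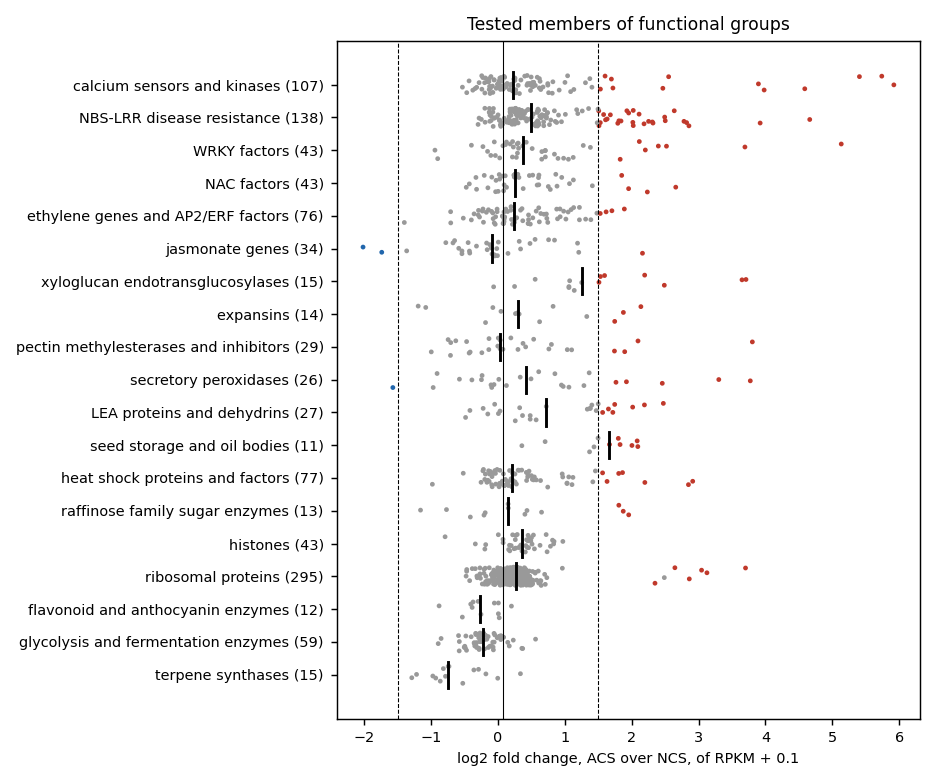
Each point is a tested member of a functional group, placed by its log2 fold change of ACS over NCS, with the number of tested members in brackets. Red and blue points are DEGs higher and lower in ACS, thick bars are group medians, the thin line is the median of all genes tested (0.08) and dashed lines mark 1.5. Calcium, NBS-LRR and WRKY genes spread to the right, and terpene synthases, glycolysis and flavonoid genes have medians left of the line.

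The next 3 genes, with roles in systemic defence in *Arabidopsis*, were picked after their values were seen, and no list of such genes was counted. *FvH4_5g38260*, an AGD2-like defense response protein 1, whose *Arabidopsis* counterpart makes the precursor of pipecolic acid, had 0.514, 0.491 and 0.592 RPKM in NCS and 7.84, 8.51 and 7.34 in ACS. *FvH4_1g09240*, a flavin-dependent monooxygenase 1, which in *Arabidopsis* turns pipecolic acid into a mobile signal of systemic resistance, had 0.0699, 0.166 and 0.124 and 3.18, 3.63 and 3.94. Neither gene had overlapping libraries, and their log2 fold changes were 3.66 (standard error 0.08, adjusted p = 2.1e-06) and 4.09 (standard error 0.17, adjusted p = 1.3e-05). The NPR1-like gene *FvH4_6g38830* changed by 2.14, from 0.184 ± 0.0463 to 1.14 ± 0.0756 RPKM. Both DEGs among the 12 senescence-associated genes tested (16.7%) were described as SAG101, which in *Arabidopsis* acts with EDS1 in immunity. The more abundant, *FvH4_6g50162*, had 9.4, 9.0 and 8.94 RPKM in NCS and 58, 65.2 and 66.2 in ACS (log2 fold change 2.78). Without a fold limit 6 of the group were higher and 2 lower. Senescence-related gene 1 (*FvH4_3g06513*), which the study names, fell from 1.34 ± 0.0205 to 0.578 ± 0.169 RPKM (log2 fold change -1.12). SAG12 (*FvH4_1g25983*), also named by the study, was below the filter, with means of 0.329 RPKM in NCS and 0.194 in ACS. Of the 46 tested pathogenesis-related proteins and thaumatins, 5 were higher (10.9%) and 1 lower. The osmotin *FvH4_5g01820* rose from 9.3 ± 0.414 to 36.5 ± 2.31 RPKM (log2 fold change 1.96) and a second osmotin, *FvH4_5g01840*, from 1.91 ± 0.0846 to 8.15 ± 1.81. Chitinase A (*FvH4_7g15680*), an enzyme that cuts fungal cell walls, had 1.66, 1.31 and 1.54 RPKM in NCS and 15.2, 20.2 and 20.2 in ACS (log2 fold change 3.54, adjusted p = 1.0e-05). It was the only DEG higher in ACS among 26 tested chitinases and beta-1,3-glucanases (3.85%, near the 3.10% of all genes tested).

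Enzymes that remodel the cell wall were led by the xyloglucan endotransglucosylases (XTH), which cut and rejoin the xyloglucan chains that tie cellulose fibres together. Of 30 XTH genes 15 were tested, and 7 were called higher in ACS (46.7%), none lower. Without a fold limit 14 were higher and none lower, and the median log2 fold change of 1.25 was far from the 0.08 of all genes tested. A moderate change was that of XTH15 (*FvH4_6g38170*, 0.526 ± 0.141 RPKM in NCS and 1.76 ± 0.0614 in ACS, log2 fold change 1.59). XTH33 (*FvH4_4g34630*) had 2.29, 1.88 and 2.24 RPKM in NCS and 28.5, 28.2 and 30.5 in ACS. The XTH16 gene *FvH4_6g38160* had 1.62, 1.4 and 1.4 in NCS and 19.3, 19.6 and 20 in ACS. Replicates of both were close to each other and the conditions far apart, with log2 fold changes of 3.71 ± 0.08 (SE, limma, adjusted p = 2.1e-06) and 3.65 (standard error 0.07, adjusted p = 1.7e-06). A second XTH16 gene, *FvH4_6g38150*, chosen after its values were seen, was the most abundant of the 7 in ACS, with 12.3 ± 0.739 RPKM in NCS and 35.2 ± 0.771 in ACS and a log2 fold change of 1.51, just past the limit. XTH4 (*FvH4_4g22090*), also chosen in this way, had 62.5 RPKM at harvest, 2.71 ± 0.125 in NCS and 12.7 ± 0.0717 in ACS. The number of XTH DEGs was 4 after median-of-ratios scaling and 3 with a pseudocount of 1 RPKM.

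Pectin is loosened or stiffened by pectin methylesterases, whose activity is held back by inhibitors. Of 73 such genes 29 were tested, and 4 were higher in ACS (13.8%) and none lower. The median log2 fold change of 0.03 became -0.08 after median-of-ratios scaling. *FvH4_7g27800*, of the invertase and pectin methylesterase inhibitor superfamily, had 2.3, 2.29 and 2.85 RPKM in NCS and 32.6, 38.4 and 36.7 in ACS (log2 fold change 3.80, standard error 0.11, adjusted p = 3.6e-06), and at harvest it was at 22.8. Pectinesterase 20 (*FvH4_5g35580*) had 0.521, 0.72 and 0.434 RPKM in NCS and 3.29, 2.33 and 2.47 in ACS (log2 fold change 2.09). Among expansins, proteins that let wall polymers slide, 14 of 37 were tested and 3 were higher (21.4%). These were expansin A4 (*FvH4_3g36410*, 0.601 ± 0.103 and 2.97 ± 0.191 RPKM, log2 fold change 2.14), expansin-like B1 (*FvH4_5g20290*, 1.88) and expansin A1 (*FvH4_6g48210*, 1.75). Expansin A4 stood above its ACS level at harvest (4.02 RPKM) and in CCS (8.14). AH means were 0.239 RPKM for expansin-like B1 (1.98 in ACS) and 0.882 for expansin A1 (0.948 in ACS). Pectate lyase *FvH4_4g25110*, which cuts pectin, had 14 reads in the NCS libraries together and 263 in the ACS libraries. Of 24 tested pectin lyases and polygalacturonases 2 were DEGs (8.33%). None of the 28 tested cellulose synthases and cellulases was a DEG, with 9 higher and 7 lower without a fold limit.

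The study designed quantitative PCR primers for several of these genes, and the primer pairs of 7 DEGs of the cell wall, galactinol, peroxidase and jasmonate are printed 5′ to 3′ because they identify the transcripts measured. No base is in capitals, as none is singled out.
FvH4_6g38170 (XTH15) forward: aagccaatgcttgtcttgc
FvH4_6g38170 (XTH15) reverse: accttgcgggaatcgttta
FvH4_3g36410 (expansin A4) forward: ccaggactggctggatgag
FvH4_3g36410 (expansin A4) reverse: ttctttccggtgaaagtctga
FvH4_5g35580 (pectinesterase 20) forward: cagacaatcatcaccggaag
FvH4_5g35580 (pectinesterase 20) reverse: tttcgaactgcaactgcttg
FvH4_4g20790 (galactinol synthase 2) forward: ggtgaagaaatggtgggagata
FvH4_4g20790 (galactinol synthase 2) reverse: cggtgcacttctctgctgat
FvH4_5g20290 (expansin-like B1) forward: ggacactcaaagcccacct
FvH4_5g20290 (expansin-like B1) reverse: gagctgaatgtctgatgtataggc
FvH4_3g40160 (cationic peroxidase) forward: aaacaaaactgcccacgaac
FvH4_3g40160 (cationic peroxidase) reverse: gtcacttccatcgcctttg
FvH4_2g39441 (jasmonic acid carboxyl methyltransferase) forward: tgcgtactcacttcaattccac
FvH4_2g39441 (jasmonic acid carboxyl methyltransferase) reverse: aaccatgctcatcaatgcaa

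**Figure D3:**
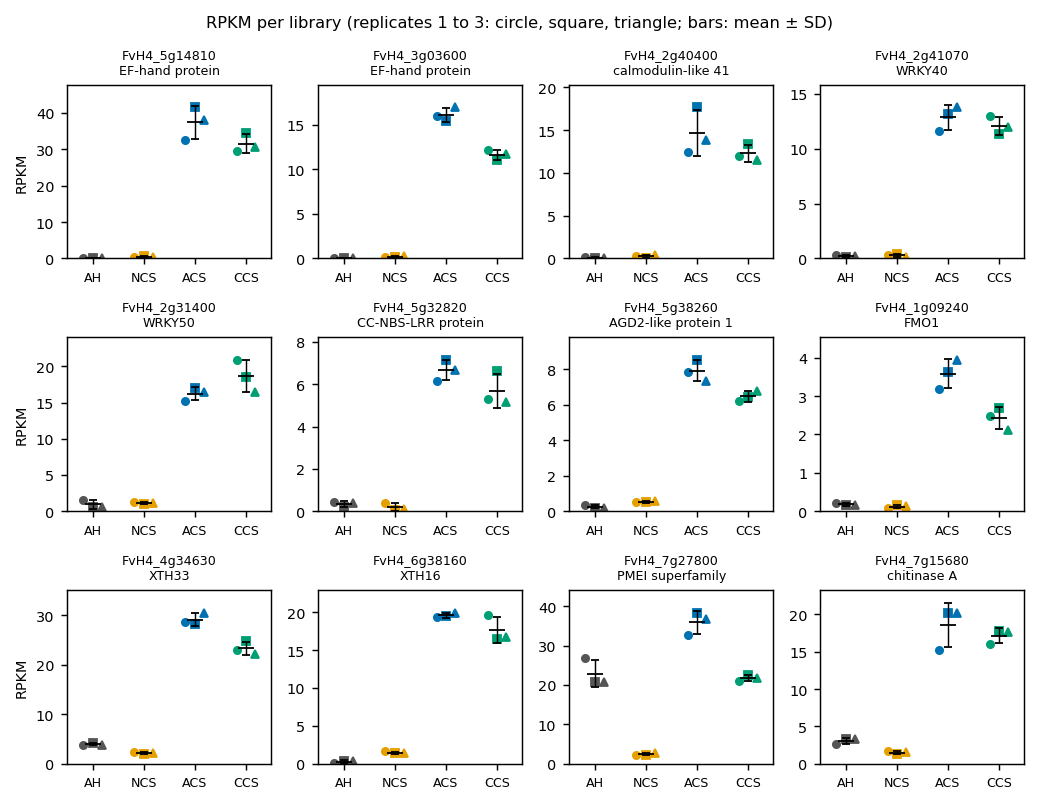
Each panel gives the RPKM of a gene in the 12 libraries, by condition, with replicates 1 to 3 as circle, square and triangle and the mean and SD as black bars. In each of the 12 panels the 3 ACS libraries lie above the 3 NCS libraries. The PMEI superfamily gene is also high in AH, at 22.8 RPKM.

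Genes of phenolic metabolism, oxidation and detoxification differed in how many DEGs they held. Secretory peroxidases, which use hydrogen peroxide to cross-link wall phenolics, had 26 members tested of 72, with 5 higher (19.2%) and 1 lower. *FvH4_6g08310*, similar to peroxidase 5, had 0.0516, 0.0851 and 0.0244 RPKM in NCS and 1.6, 2.24 and 2.14 in ACS (log2 fold change 3.77). *FvH4_6g43500*, a peroxidase 3, had 1 read in the 3 NCS libraries together and 460 in the 3 ACS libraries. This was a ratio of 420 per read on genes, with an exact 95% interval from 74.9 to 16608 that covers counting error only. The interval treats reads as independent and is too narrow if the mates of a read pair were counted separately. The third, *FvH4_2g05370*, went from 0.71 ± 0.0842 to 4.34 ± 0.312 RPKM. The group also moved the other way, since the cationic peroxidase *FvH4_3g40160* fell, from 1.56, 1.6 and 1.6 RPKM in NCS to 0.456, 0.621 and 0.354 in ACS (log2 fold change -1.57, adjusted p = 4.7e-04). A dirigent-like gene (*FvH4_3g44751*), of the proteins that guide the coupling of lignans, had 0.0907, 0.128 and 0.104 and 2.8, 2.67 and 2.65 RPKM, and a cinnamyl alcohol dehydrogenase 9 (*FvH4_3g46010*) had 0.0782, 0.0829 and 0.087 and 1.73, 2.1 and 1.96. With log2 fold changes of 3.76 and 3.47, they were the DEGs among 29 tested monolignol and dirigent genes (6.90%). The gene that the study names *CAD*, *FvH4_1g16790*, was lower in ACS (-0.89), and its description placed it with glycolysis and fermentation. The shares of DEGs higher in ACS were near the 3.10% of all genes tested in 3 further groups. UDP-glycosyltransferases had 3 of 106 tested (2.83%), led by *FvH4_6g17080* (3.88) and *FvH4_3g37310* (3.86), while 21 were higher and 41 lower without a fold limit. Cytochromes P450 had 5 higher (4.0%) and 1 lower of 125 tested, and glutathione transferases had 1 of 41 (2.44%). Of 9 laccases none was a DEG, and of 32 tested HXXXD acyltransferases 2 were (6.25%), with *FvH4_2g12510* at 1.81 ± 0.148 RPKM in NCS and 12.6 ± 1.05 in ACS.

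Genes of seed proteins were higher in ACS, and the genes of protection against water loss lay beside them. Of the 14 seed storage and oil body genes 11 were tested, 6 were called higher (54.5%) and none lower, with a median log2 fold change of 1.67. The oleosin *FvH4_6g51310*, a coat protein of seed oil bodies, had 133, 145 and 112 RPKM in NCS and 967, 412 and 419.5 in ACS. The legumin-like cupin *FvH4_2g21400*, a seed storage protein, was counted with germins and other cupins and is not among the 14. It had 54.2, 77.9 and 55.4 RPKM in NCS and 1300.1, 439 and 402 in ACS. In both genes the NCS libraries were well below the ACS libraries, and ACS replicate 1 was the highest ACS library by far. Their log2 fold changes were 2.09 ± 0.34 (SE, limma, adjusted p = 0.0031) and 3.31 (standard error 0.45, adjusted p = 0.0016), and without ACS replicate 1 they were 1.69 and 2.77. AH means were 672 and 681 RPKM, so that the lowest of the 4 conditions was NCS. All 6 seed DEGs and all 7 DEGs among the 27 tested germins and other cupins had ACS replicate 1 at least 1.5 times above the next library. Without it 3 and 5 were called. Fewer seed cells in a sample and less RNA per seed cell cannot be told apart in such bulk libraries.

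Late embryogenesis abundant (LEA) proteins and dehydrins shield membranes and proteins in drying cells and are abundant in seeds. The group found by description, called LEA genes here, had 46 genes, 27 tested, 7 higher in ACS (25.9%) and none lower. The median log2 fold change was 0.72, and without a fold limit 18 were higher and 3 lower. The LEA gene *FvH4_6g27100* had 7.04, 7.73 and 7.92 RPKM in NCS and 50.4, 31.9 and 18.2 in ACS (log2 fold change 2.01, standard error 0.34, adjusted p = 0.0038, and 1.66 without ACS replicate 1), and AH was at 30.7. Cold regulated gene 27 (*FvH4_7g29230*), a cold- and clock-controlled regulator in *Arabidopsis*, was counted among the 7 by its description and is not described as an LEA protein. It had 0.117, 0.145 and 0.151 RPKM in NCS and 0.704, 1.03 and 1.29 in ACS (log2 fold change 2.19, adjusted p = 2.7e-04), and here ACS replicate 1 was the lowest of the 3 ACS libraries. *FvH4_3g08950*, an LEA family gene, had 9 reads in NCS and 126 in ACS, and its mean level of 3.91 RPKM in CCS exceeded the 0.748 ± 0.256 of ACS. With the same genes tested, 3 genes of the group, cold regulated gene 27 among them, were called without ACS replicate 1 and 13 genes without ACS replicate 3. Of the 7 DEGs, which include cold regulated gene 27, 4 had ACS replicate 1 at least 1.5 times above the next library, as the seed genes did. The part of the seed genes' change in that of LEA genes was not tested.

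Small heat shock proteins followed the seed genes in this respect, and a heat shock protein 70 did not. Of 170 heat shock proteins and factors 77 were tested, 7 were higher (9.09%) and none lower, and in 6 of the 7 ACS replicate 1 stood out. HSP21 (*FvH4_7g32800*), a chaperone of plastids, had 2.39, 3.6 and 2.67 RPKM in NCS and 44.5, 15.1 and 16 in ACS (log2 fold change 2.91, standard error 0.42, and 2.41 without ACS replicate 1). The HSP20-like gene *FvH4_7g23650* had 9.93 ± 0.33 RPKM in NCS, 48.1 ± 18.8 in ACS and a mean of 229 in AH, with a log2 fold change of 2.20, or 1.9 without ACS replicate 1. In contrast, *FvH4_6g41130*, an HSP70, had 1.14, 0.989 and 0.829 RPKM in NCS and 6.99, 8.38 and 7.72 in ACS, with replicates close together, a log2 fold change of 2.85 (adjusted p = 1.4e-05) and only 0.882 RPKM in AH. Without ACS replicate 1, 4 heat shock genes were called.

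Raffinose family sugars are made by galactinol synthase and raffinose synthase. Of 17 such genes 13 were tested, 3 were higher in ACS (23.1%) and none lower, and 3 were called with any library left out. The group as a whole did not move one way: without a fold limit 5 were higher and 4 lower (5 and 5 after median-of-ratios scaling), the median log2 fold change was 0.15, and the summed RPKM was 175.6 to 183 in NCS and 137.6 to 155 in ACS. Galactinol synthase 2 (*FvH4_4g20790*) had 2.25, 1.45 and 1.79 RPKM in NCS and 9.08, 6.68 and 6.33 in ACS (log2 fold change 1.96, standard error 0.19, adjusted p = 4.0e-04). It was low at harvest (0.352 RPKM) and in CCS (1.19 RPKM), so that ACS was the highest of the 4 conditions. Galactinol synthase 1 (*FvH4_6g07920*) had 1.96, 2.12 and 1.32 RPKM in NCS and 9.53, 4.89 and 5.66 in ACS, a similar change of 1.81, but stood at 12.1 RPKM in AH. The raffinose synthase *FvH4_5g05860* had 1.24, 1.52 and 1.02 and 7.74, 3.91 and 3.7 RPKM (log2 fold change 1.87). Both of the latter had ACS replicate 1 at least 1.5 times above the next library, and without it their log2 fold changes were 1.53 and 1.54. Abscisic acid signalling had 2 DEGs of 60 tested (3.33%, near the 3.10% of all genes tested), the protein phosphatases 2C *FvH4_3g37010* (1.01 ± 0.159 and 3.68 ± 1.51 RPKM, log2 fold change 1.71) and *FvH4_3g10800* (1.57), again with ACS replicate 1 highest by that margin. Without that library their log2 fold changes were 1.40 and 1.33, under the limit, and no gene of the group was called. Fatty acid desaturases, which keep membranes fluid in the cold, had 2 DEGs of 16 tested (12.5%). Without a fold limit 6 were higher and 4 lower, and the median log2 fold change was 0.0035. The summed RPKM of the group was 678 to 701 in NCS and 545 to 574 in ACS. *FvH4_7g15550*, described as a fatty acid/sphingolipid desaturase, had 1.72, 1.97 and 1.83 RPKM in NCS and 10.2, 11.6 and 11.2 in ACS (log2 fold change 2.52, adjusted p = 4.3e-06). Fatty acid desaturase 8 (*FvH4_3g38780*) had 1.11, 1.24 and 1.49 RPKM in NCS and 8.08, 3.53 and 2.95 in ACS. Its log2 fold change of 1.71 fell to 1.28, under the limit, without ACS replicate 1.

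**Figure D4:**
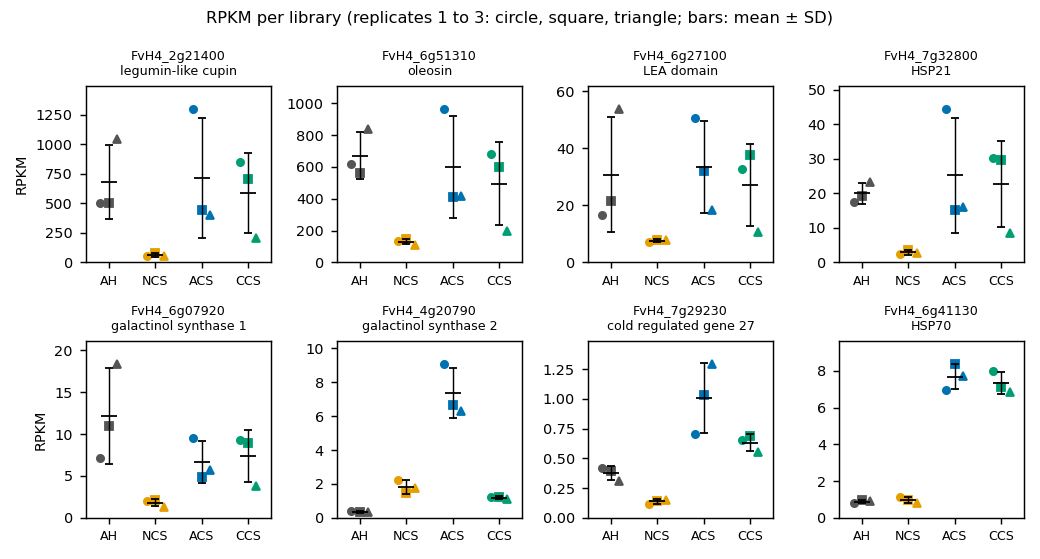
Each panel gives the RPKM of a gene in the 12 libraries, by condition, with replicates 1 to 3 as circle, square and triangle and the mean and SD as black bars. In the upper row and for galactinol synthase 1, ACS replicate 1 (circle) lies above the other ACS libraries and the AH mean is well above that of NCS, while HSP70 has close replicates and a low level in AH (0.882 RPKM).

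Jasmonate genes held the most abundant DEG that was lower in ACS. Of 48 genes placed in this group by their descriptions 34 were tested. Of these 1 was higher (2.94%, near the 3.10% of all genes tested) and 2 were lower, with a median log2 fold change of -0.09. Jasmonic acid carboxyl methyltransferase (*FvH4_2g39441*), which forms the volatile methyl jasmonate, had 318, 337 and 332 RPKM in NCS and 72, 85.9 and 86.2 in ACS. It was lower in every ACS library than in any NCS library (log2 fold change -2.02 ± 0.08 (SE), limma, adjusted p = 1.2e-05), and stood at 94.7 RPKM at harvest. The allene oxide synthase *FvH4_2g07423*, of the committed step of jasmonate synthesis, had 15.6, 17 and 15.1 and 4.17, 4.88 and 5.08 RPKM (log2 fold change -1.74, adjusted p = 2.7e-05), with 13.5 at harvest. Other allene oxide synthase genes did not follow it: *FvH4_2g07421* had 10.7 ± 0.137 RPKM in NCS and 13.5 ± 1.48 in ACS, and *FvH4_5g16260* had 23.8 ± 0.251 and 26.5 ± 1.35. The 12-oxophytodienoate reductase *FvH4_5g32680*, of a later step, was lower by less than the fold limit (-0.78, adjusted p = 8.2e-05). The gene of the group higher in ACS was lipoxygenase 1 (*FvH4_6g06100*, 1.35 ± 0.0957 and 6.39 ± 0.396 RPKM, log2 fold change 2.16), with 4.63 RPKM at harvest. It was placed there by its description, and a part in jasmonate synthesis was not tested.

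The other strongest decreases came from genes of unlike function. *FvH4_2g22990*, an alpha/beta-hydrolase, had 0.691, 0.575 and 0.589 RPKM in NCS, but 1 read in the 3 ACS libraries together against 257 in NCS. This was a ratio of 282 per read on genes (exact 95% interval 50.1 to 11172, counting error only, with reads treated as independent). It was listed at 0 in all AH libraries and had a mean of 0.00924 RPKM in CCS. *FvH4_3g30360*, a serine carboxypeptidase of family S28, had 26.3, 28.3 and 28 RPKM in NCS and 4.53, 4.84 and 4.34 in ACS (log2 fold change -2.57, adjusted p = 2.2e-06) and only 0.544 RPKM at harvest. *FvH4_5g10880*, a CYP78A6, whose *Arabidopsis* counterpart promotes seed growth, went from 17.1, 18.4 and 18.4 to 3.24, 3.01 and 3.29 RPKM (log2 fold change -2.46, adjusted p = 2.2e-06). In this gene AH was above NCS, at 26.2 RPKM. *FvH4_2g02730*, the atypical thioredoxin ACHT2 of plastids, had 9.36, 10.6 and 11.3 and 2.11, 1.9 and 1.81 RPKM (log2 fold change -2.37). The MLP-like protein 423 gene *FvH4_4g19010*, of the Bet v 1 family of fruit allergens, had 122, 128 and 123 and 29.5, 27.3 and 28.8 RPKM (log2 fold change -2.12, adjusted p = 2.6e-06), whereas *FvH4_4g19170*, with the same description, rose from 3.81 ± 0.855 to 15.9 ± 0.321 RPKM (log2 fold change 2.06). The remaining genes of the 10 largest decreases were a self-incompatibility S1 protein (*FvH4_1g24901*, -2.66), an NmrA-like regulator (*FvH4_2g09150*, -2.36), a DUF506 protein (*FvH4_1g25290*, -2.27), the bZIP factor *FvH4_4g28780* (-2.21) and a glycosyl hydrolase of family 17 (*FvH4_4g13120*, -2.16). The auxin-responsive SAUR gene *FvH4_2g10760* was lower as well (-1.82), while 2 other auxin genes of the 73 tested, IAA29 (*FvH4_2g28970*, 1.86) and the efflux carrier *FvH4_4g32450* (1.72), were higher.

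**Figure D5:**
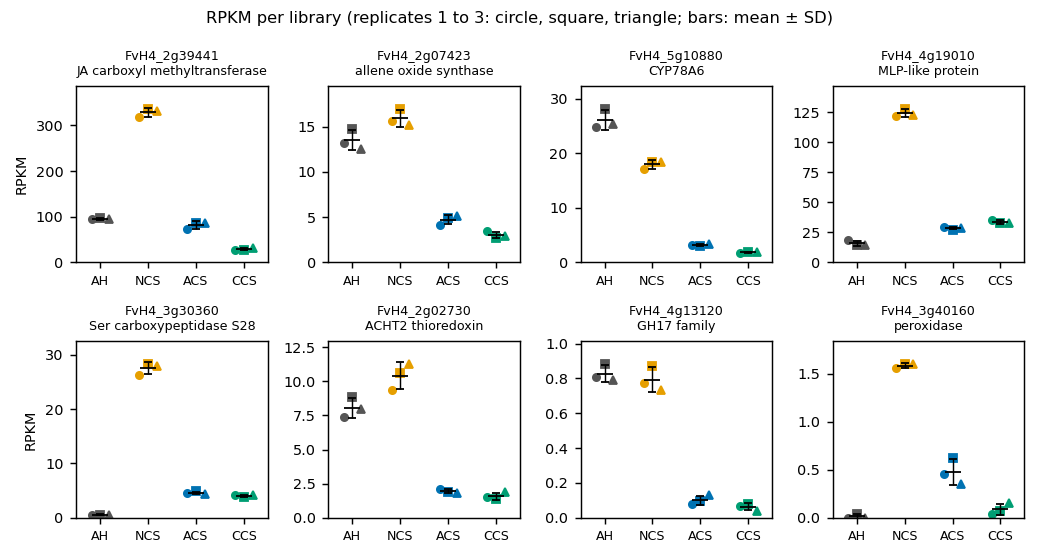
Each panel gives the RPKM of a gene in the 12 libraries, by condition, with replicates 1 to 3 as circle, square and triangle and the mean and SD as black bars. The 3 ACS libraries lie below the 3 NCS libraries in all 8 panels, and AH lies near NCS in some genes (ACHT2 thioredoxin, 8.06 RPKM) and near 0 in others (peroxidase, 0.0134 RPKM).

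Some groups shifted by less than the fold limit. Of 59 tested genes of glycolysis and fermentation none was a DEG. Without a fold limit 3 were higher and 32 lower in ACS (beside 30.9 and 17.1% of all genes tested), with a median log2 fold change of -0.23. The words of the descriptions also brought in *FvH4_1g16790*, an alcohol dehydrogenase by description that the study names *CAD*, of lignin synthesis. Terpene synthases, which make volatile aroma compounds, had no DEG among 15 tested, 1 higher and 11 lower without a limit, and a median of -0.75. Flavonoid and anthocyanin enzymes had 1 higher and 7 lower of 12 and a median of -0.28. In the other direction, 32 of 43 tested histones were higher and 3 lower, with a median of 0.36, and 181 of 295 ribosomal proteins were higher and 16 lower, with a median of 0.27. After median-of-ratios scaling, which moved the median of all genes tested from 0.08 to -0.03, the medians of these 5 groups were -0.34, -0.86, -0.39, 0.25 and 0.15. Of the 6 ribosomal protein DEGs, 5 have identifiers that begin with FvH4_c, outside the numbered chromosomes. All 56 genes of that kind summed to 46.7 to 291 RPKM in NCS and 519 to 870 in ACS, and with the same genes tested only 1 ribosomal DEG was called without NCS replicate 2 or 3 or ACS replicate 1 or 2, and 3 without NCS replicate 1. The most abundant transcript of all 6 libraries, chosen after its values were seen, was the zinc-binding oxidoreductase *FvH4_6g50700*, with 14219, 14578 and 14236 RPKM in NCS and 9234, 9455 and 9918 in ACS (log2 fold change -0.59, adjusted p = 2.1e-04).

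Genes whose identifiers the study names mostly changed by less than the fold limit. Of 42 such genes 37 were tested, 6 were DEGs higher and 2 lower, and without a fold limit 21 were higher and 10 lower. These genes were chosen by the study on these samples and are not independent evidence of a direction. XTH30 (*FvH4_5g23180*) rose from 33.5 ± 1.78 to 70.4 ± 2.49 RPKM (log2 fold change 1.07), pectinesterase 20 *FvH4_5g35590* from 18.8 ± 0.422 to 40.5 ± 1.87 (1.10), polygalacturonase inhibitor *FvH4_6g22810* from 5.89 ± 0.544 to 13.9 ± 0.699 (1.23) and laccase 7 *FvH4_6g12430* from 1.14 ± 0.199 to 2.54 ± 0.343 (1.09). All 4 passed the adjusted p but were not DEGs. *FvH4_1g20060*, which the study names as an arabinogalactan protein, a wall glycoprotein, was at 489, 519 and 526 RPKM in NCS and 992, 1035 and 1036 in ACS (1.00, adjusted p = 2.9e-05), and ferulic acid 5-hydroxylase (*FvH4_1g12210*), of lignin synthesis, at 41.5 ± 1.82 and 50 ± 1.99. The gene *FvH4_1g16790*, which the study names *CAD*, of lignin synthesis, was lower in ACS (-0.89), with mean levels of 2.01 RPKM in NCS, 1.04 in ACS and 0.0395 in AH. The genes *FvH4_3g23310* (-0.59) and *FvH4_4g27370* (-0.46), both described as mannose-1-phosphate guanylyltransferases, were lower as well. The study names them *GMP* and *GGalPP* and proposes a part in the polymerization of xyloglucans. It also places GDP-mannose and GDP-galactose in ascorbate synthesis. Actin-11 (*FvH4_7g22410*) had 14.3 ± 0.101 RPKM in NCS and 14 ± 0.768 in ACS, with overlapping libraries and an adjusted p of 0.66.

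Beside the 2 conditions compared, the levels at harvest and after cold storage with CO2 placed the DEGs. The 507 genes higher in ACS had a median level of 0.767 RPKM in AH and 3.91 in CCS, next to 0.755 in NCS and 4.66 in ACS. The 37 genes lower in ACS had medians of 4.37 in AH and 1.59 in CCS, next to 6.40 in NCS and 1.63 in ACS. Calcium, WRKY and NBS-LRR genes named above were low in AH, while seed, LEA and small heat shock genes had AH means well above those of NCS. These levels are descriptions, and no comparison with AH or CCS was tested.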

How the data were processed

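RNA-seq was done on ripe strawberries in 3 libraries per condition. According to the study's methods, the authors trimmed reads with cutadapt 1.16.6, aligned them with HISAT2 2.1.0 to the *Fragaria vesca* v4.0.a2 genome, counted them over exons without regard to strand and deposited RPKM, so that reads of overlapping or near-identical neighbouring genes may be shared. The deposited table also holds the authors' log2 fold changes between conditions, which were not used. Here log2(RPKM + 0.1) was tested with limma 3.58.1 in R 4.3.3 on the 6 NCS and ACS libraries after a filter of 0.5 RPKM in 3 libraries. Because the values are RPKM and not counts, no count model was the main test. Whole reads were recovered from the steps of the values and solved for 30995 of 30995 genes (tolerance 0.005 reads), which gave the depth. On simulated data, 196 of 200 changed genes were recovered among 16341, with 0 false calls. The share of false calls in the libraries themselves, and among genes near the fold limit, was not tested. The groups were defined by words in the descriptions, and the members and lists were chosen with earlier results of these data known. Genes were named as the 10 largest changes in each direction among DEGs whose libraries do not overlap, up to 3 DEGs per group and direction, and all identifiers given by the study. Other genes are marked as chosen after their values were seen. With 3 against 3 libraries an exact permutation test of a single gene cannot go below p = 0.1, so none was used. Alternatives were another pseudocount, no filter, median-of-ratios scaling, all 12 libraries, a replicate block, each library left out, a mean-variance trend, voom on whole reads and other fold limits.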

Additional observations from a re-analysis of the deposited data

How the results depend on the processing

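With a pseudocount of 1 RPKM, 230 DEGs were called (217 higher and 13 lower), and the numbers higher in ACS were 4 for LEA genes, 3 for XTH genes, 4 for WRKY factors and 8 for NBS-LRR genes. A fold limit of 1 on the log2 scale gave 1201 DEGs (1071 higher and 130 lower) and a limit of 2 gave 272 (261 and 11). Without a fold limit, 18 LEA, 14 XTH, 29 WRKY, 83 NBS-LRR, 53 calcium and 10 seed genes were higher. Median-of-ratios scaling gave 4 XTH genes and 478 DEGs, no filter gave 639, all 12 libraries in the fit 541, a trend 549 and voom on whole reads 657. Leaving out each library gave 300 to 615 DEGs, 263 to 577 of them higher, and 1 to 13 LEA, 4 to 7 WRKY, 13 to 30 NBS-LRR and 3 to 9 seed genes. For DEGs, WRKY and NBS-LRR genes the lowest numbers came from applying the filter again without an ACS library, when a gene seen only in ACS cannot reach 3 libraries. Seed genes fell to 3 without ACS replicate 1 with or without that filter. No named DEG changed direction in any of these settings, but after median-of-ratios scaling the medians of 11 of 46 groups changed sign, those of pectin methylesterases, laccases, glutathione transferases, P450, auxin, abscisic acid, MYB, MADS-box, ABC transporter, desaturase and ripe receptacle genes. Without a filter 8 medians changed sign, and with a library left out 2 to 9.

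Same-numbered libraries did not pair: the correlations of their deviations from the group means were 0.046, 0.044 and 0.180. A fit with the replicate block gave 548 DEGs (511 higher and 37 lower), of which 542 were shared with the 544 of the report, and every named gene kept its call.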

Other observations

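Several families outside the groups of the report, counted after their values were seen, also held DEGs. Of 836 tested protein kinases and receptor kinases 31 were higher in ACS (3.71%, near the 3.10% of all genes tested) and 1 lower, with a median log2 fold change of 0.11. Of 17 LRR receptor-like resistance proteins 6 were higher (35.3%) and none lower. Of 45 tested LEA hydroxyproline-rich glycoproteins, a family that includes membrane proteins of defence in *Arabidopsis*, 7 were higher and none lower, with a median of 0.72, and in none of the 7 was ACS replicate 1 at least 1.5 times the next ACS library. Ankyrin repeat proteins had 5 of 52 higher (9.62%), and genes described as AAA-ATPase 1 had 4 of 5. Because these families were picked for their DEGs, the counts are descriptions.

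Of the 544 DEGs, 381 belonged to none of the 46 groups and 436 carried a description.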
